A study of Mus musculus with 8 samples.

Results

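The apolipoprotein and VLDL assembly genes examined in mouse liver were Apoa1, Apoa2, Apoa4, Apoa5, Apob, Apoc2, Apoc3, Apoe and Mttp. They were found by symbol, through the Ensembl gene identifiers of the count table and the GENCODE M21 annotation of GRCm38. All 9 genes had a row among the 18095 genes of the table, and all 9 were among the 14866 genes tested after the filter on low counts. The study examined how loss of Inpp4b, a lipid phosphatase that acts on phosphoinositides, affected the livers of mice on a high-fat diet (HFD). Bulk liver RNA was sequenced from 4 HFD Inpp4b-/- and 4 HFD WT male mice at 12 weeks of age, and each library came from its own animal. Both genotypes shared the diet: dams received the HFD before mating and through pregnancy and lactation, and the pups stayed on it. The labels give the strain as C57BL/6 and the study's methods give FVB. The labels name no tissue-specific driver for the deletion.

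Liver secretes triglyceride in very low-density lipoproteins (VLDL), each built on a molecule of apolipoprotein B that is loaded with lipid in the endoplasmic reticulum by the microsomal triglyceride transfer protein. Smaller exchangeable apolipoproteins ride on VLDL and on high-density lipoproteins (HDL), where they activate or restrain lipoprotein lipase, form the protein shell of HDL, or act as ligands for hepatic uptake. Hepatocytes are the main source of most of these proteins in the body.

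The HFD WT libraries held 25893430 to 31427831 counts each and the HFD Inpp4b-/- libraries 32738435 to 36662531, so the groups did not overlap in depth. Mitochondrial genes took 4.75% to 5.64% of the counts of HFD WT libraries and 5.84% to 7.42% of HFD Inpp4b-/- ones, also without overlap. Inpp4b itself had 9 to 33 counts in HFD Inpp4b-/- and 5 to 20 in HFD WT libraries, below the filter, so these counts do not show the deletion and "HFD Inpp4b-/-" below means the libraries labelled so. Counts were scaled by library size and TMM to CPM, the counts that a gene would have in a library of fixed size. A gene was called where edgeR's quasi-likelihood test gave a Benjamini-Hochberg adjusted p under 0.1 together with a fold change over 1.3 in either direction. Each log2 fold change is HFD Inpp4b-/- minus HFD WT and is given with its standard error (SE) and 95% interval. In bulk liver, fewer cells of a type and less RNA per cell cannot be told apart.

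None of the 9 genes was called different between the genotypes. edgeR called 0 of the 9, against 1.17% of all tested genes (174 of 14866), 0.552% as higher and 0.619% as lower in HFD Inpp4b-/-. Apoa2 was the 1 member with an unadjusted p under 0.05, a level that 13.9% of all tested genes reached. DESeq2 also called 0 of the 9, against 4.04% of the genes it tested. The median log2 fold change of the 9 was 0.15, with 5 positive and 4 negative, beside 0.0027 over all tested genes. Their share of all counts was 4.45%, 4.38%, 4.68% and 4.87% in HFD WT replicates 1 to 4 and 5.32%, 4.80%, 5.17% and 5.31% in HFD Inpp4b-/-. Replicate 2 was the lowest in both groups, and the ranges overlapped.

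**Figure D1:**
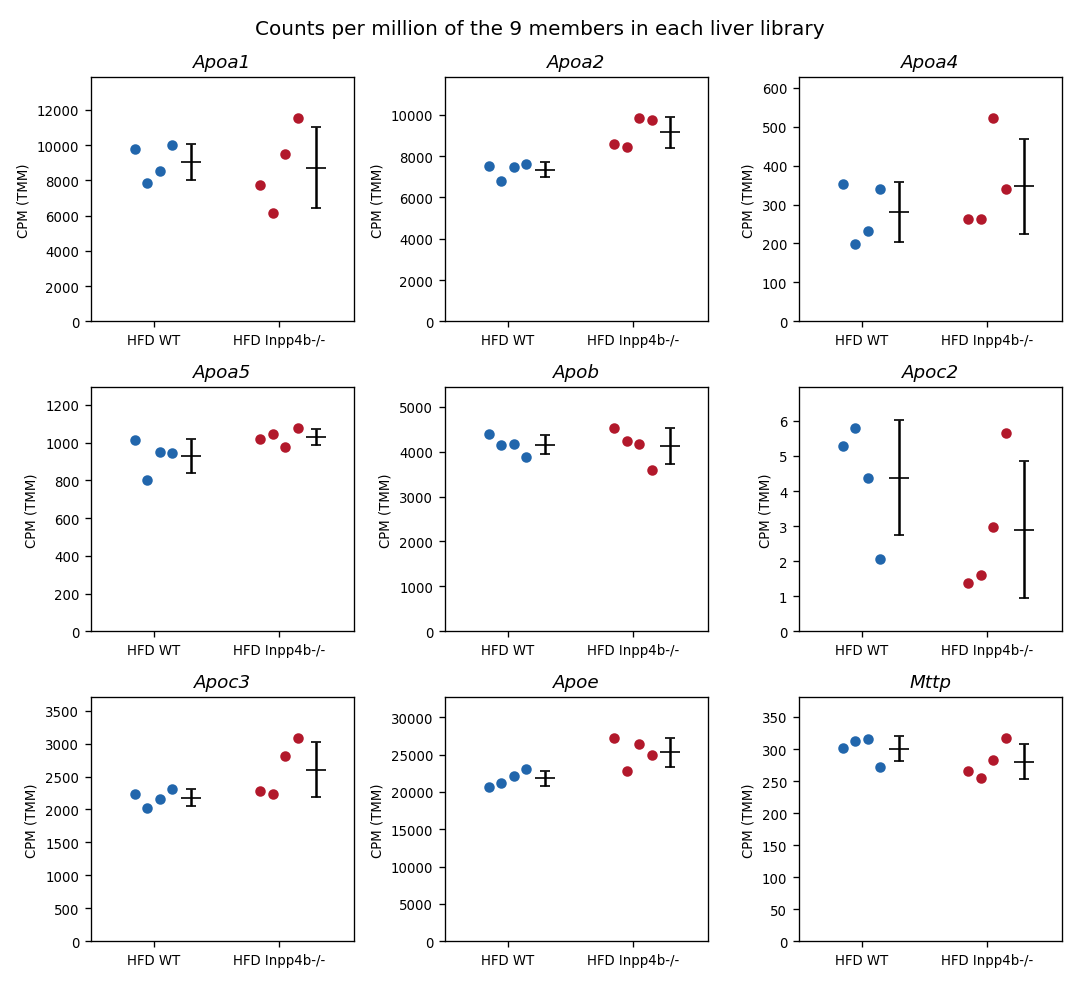
CPM of each of the 9 genes (vertical axes, linear from 0, 1 panel per gene) in the 4 HFD WT (blue) and 4 HFD Inpp4b-/- (red) libraries, 1 point per mouse, with the mean and SD of each group in black. The Apoa2 points of the 2 groups are apart (6796 to 7625 against 8437 to 9845 CPM), while in the other 8 genes they overlap.

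Promoter sequence is shown for Apoa2, the member whose CPM did not overlap between the groups, for Apoe, the member with the most counts, and for Apoc2, the member with the fewest counts. RefSeq lists several starts for some genes, and for each gene the stretch shown is the one before the start nearest to that of the gene in GENCODE. In GRCm38.p6 these stretches are written 5′ to 3′ along the gene's strand, and lie at chr1:171224804-171225053 (plus), chr7:19699189-19699438 (minus) and chr7:19677942-19678191 (minus). Part of the Apoc2 stretch lies inside the neighbouring gene Apoc4 (chr7:19678083-19681479). Capitals mark matches to the motifs searched.
Apoa2: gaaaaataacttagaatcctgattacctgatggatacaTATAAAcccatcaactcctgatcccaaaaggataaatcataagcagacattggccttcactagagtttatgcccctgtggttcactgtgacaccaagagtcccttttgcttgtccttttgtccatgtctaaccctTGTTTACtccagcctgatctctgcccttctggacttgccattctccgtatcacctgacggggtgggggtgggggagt
Apoe: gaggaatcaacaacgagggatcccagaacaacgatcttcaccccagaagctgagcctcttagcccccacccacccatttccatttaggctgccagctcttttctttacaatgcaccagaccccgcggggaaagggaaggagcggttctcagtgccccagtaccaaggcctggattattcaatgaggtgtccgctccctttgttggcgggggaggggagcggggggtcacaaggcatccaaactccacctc
Apoc2: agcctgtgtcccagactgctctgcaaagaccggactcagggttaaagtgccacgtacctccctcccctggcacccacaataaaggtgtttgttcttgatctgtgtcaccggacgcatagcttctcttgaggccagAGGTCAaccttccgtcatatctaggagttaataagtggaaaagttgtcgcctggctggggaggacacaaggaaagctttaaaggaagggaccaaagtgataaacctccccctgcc
The search covered both strands of 12 windows of 250 bases from 8 of the 9 genes; Apoc3 had no entry. The TATA box core TATAAA was found in 5 of the 12 windows, which belong to 4 genes (Apoa2, Apoa5, Apob and Apoe), against 12.4% of the 32851 windows of all genes. The windows of a gene can overlap, and both Apoa5 windows hold the same match. The Apoe matches lie in the window of another start (chr7:19698622-19698871), not shown, which falls inside the annotated Apoe gene. TATAAA matches began 212 bases before the start in Apoa2, 31 and 56 in Apoa5, 60 in Apob, and 96 and 100 in Apoe. The forkhead motif TGTTTAC was in 1 of the 12, in Apoa2, 77 bases before the start, against 3.17% of all windows. The nuclear receptor motif AGGTCA was in 2 of the 12 (14% of all), the Apoc2 window shown and the Apoa2 window of another start, and the HNF4A motif CAAAGTCCA in 0 (0.384% of all). A match describes these letters and is not a binding site.

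The core of VLDL assembly did not differ beyond the spread between mice. Apob (chromosome 12, 7977648 to 8016835), the structural protein of VLDL, measured 4394, 4151, 4177 and 3886 CPM in HFD WT and 4523, 4232, 4170 and 3581 CPM in HFD Inpp4b-/-. Both the highest and the lowest library were HFD Inpp4b-/-. The means were 4152 ± 208 and 4126 ± 395 CPM (SD, n = 4 each), the log2 fold change was -0.01 with an SE of 0.11, and the edgeR adjusted p was 0.977. On the linear scale the 95% interval ran from 0.842-fold to 1.17-fold, and the sign of this small difference turned with the scaling, to 0.017 with upper-quartile factors, and without single libraries.

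Mttp (chromosome 3, 138089854 to 138144968), which encodes the large subunit of the lipid transfer protein, measured 301, 313, 316 and 272 CPM in HFD WT and 265, 255, 283 and 317 CPM in HFD Inpp4b-/-. Replicate 4 was the lowest HFD WT library and also the highest HFD Inpp4b-/- library, so the groups overlapped across most of their range. This gave a log2 fold change of -0.10 (SE 0.095), with an interval of -0.31 to 0.11 and an edgeR adjusted p of 0.676. Leaving out replicate 4 of HFD Inpp4b-/- gave -0.17, and leaving out replicate 2 of that group gave -0.06. Exons of Mttp share 457 bases with Trmt10a and 132 with Gm43691 on the opposite strand. These had 151 to 282 and 1 to 16 counts against 7087 to 11293 for Mttp.

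Between the main HDL proteins, Apoa2 lay higher in every HFD Inpp4b-/- library, while Apoa1 showed no difference beyond the spread between mice. Apoa2 (chromosome 1, 171225054 to 171226379) encodes the second most abundant protein of HDL. Its values were 7511, 6796, 7456 and 7625 CPM in HFD WT and 8570, 8437, 9845 and 9773 CPM in HFD Inpp4b-/-. Every HFD Inpp4b-/- library exceeded every HFD WT library, as happened in either direction for 8.72% of all tested genes and in this direction for 4.63%. The means were 7347 ± 374 and 9156 ± 756 CPM (SD, n = 4 each), a 1.25-fold ratio in the fit with an interval of 1.05 to 1.48. The log2 fold change of 0.32 (SE 0.11) had an edgeR adjusted p of 0.246 and did not pass. DESeq2 gave an adjusted p of 0.0458 at a log2 fold change of 0.31, under the fold threshold of 1.3, and 4.83% of the genes it tested reached an adjusted p under 0.1 without that threshold.

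Apoa1 (chromosome 9, 46228580 to 46230466), the main HDL protein and the activator of lecithin-cholesterol acyltransferase, measured 9764, 7864, 8522 and 10002 CPM in HFD WT. In HFD Inpp4b-/- it measured 7710, 6165, 9472 and 11529 CPM. The lowest and the highest of the 8 values were both HFD Inpp4b-/- libraries, replicates 2 and 4. The SD was 2310 CPM in HFD Inpp4b-/- (26.5% of the mean) and 1016 CPM in HFD WT (11.2%). The log2 fold change was -0.05 (SE 0.19, interval -0.47 to 0.37) with an edgeR adjusted p of 0.932. Leaving out single libraries moved it between -0.21 and 0.083.

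Apoa4 and Apoa5 are neighbours of Apoa1 and Apoc3 in a cluster of 43340 bases on chromosome 9 (46228580 to 46271919). Apoa4, made in intestine and in fat-loaded liver, measured 352, 199, 232 and 339 CPM in HFD WT and 264, 263, 522 and 340 CPM in HFD Inpp4b-/-. Replicate 3 of HFD Inpp4b-/- was the highest, and the other 3 libraries of that group lay inside the HFD WT range. The log2 fold change was 0.31 (SE 0.25, interval -0.26 to 0.87; edgeR adjusted p 0.637), and it was 0.043 without that library and 0.16 without HFD WT replicate 2. Its exons share 632 bases with Gm10680 and 634 with Gm47528 on the opposite strand; the latter had 11 to 180 counts against 6329 to 16223 for Apoa4.

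Apoa5, which promotes lipolysis of plasma triglyceride, was steadier. It measured 1014, 802, 953 and 948 CPM in HFD WT and 1018, 1046, 979 and 1077 CPM in HFD Inpp4b-/-. Only HFD WT replicate 1 reached into the HFD Inpp4b-/- range. Its log2 fold change was 0.15 (SE 0.096, interval -0.067 to 0.36) with an edgeR adjusted p of 0.530, and it was 0.075 without HFD WT replicate 2. Its exons share 524 bases with the antisense gene Gm47544.

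The C apolipoproteins act in opposite ways on lipoprotein lipase: Apoc2 encodes its cofactor and Apoc3 an inhibitor of lipolysis. Apoc3 measured 2229, 2020, 2154 and 2317 CPM in HFD WT and 2273, 2231, 2813 and 3083 CPM in HFD Inpp4b-/-. Replicates 3 and 4 of HFD Inpp4b-/- were above every HFD WT library, and the other 2 were inside the HFD WT range. Its log2 fold change was 0.25 (SE 0.13, interval -0.03 to 0.54; edgeR adjusted p 0.405), and it was 0.16 without HFD Inpp4b-/- replicate 4.

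Apoc2 had by far the fewest counts of the 9, with 143, 184, 130 and 54 in HFD WT and 50, 61, 92 and 201 in HFD Inpp4b-/-. Its CPM was 4.38 ± 1.65 in HFD WT and 2.90 ± 1.96 in HFD Inpp4b-/- (SD, n = 4 each). Replicate 4 was the lowest library of HFD WT and the highest of HFD Inpp4b-/-. The log2 fold change of -0.60 carried an SE of 0.47 and an interval of -1.64 to 0.45, the widest of the 9 (edgeR adjusted p 0.609), and it was -1.15 without HFD Inpp4b-/- replicate 4, -0.37 without replicate 1 and -0.40 without replicate 2 of that group. Of its 813 merged exon bases, 646 (79.5%) are annotated on the same strand to another gene, Gm44805, which has no row among the counts used here. Of the 631 bases of its first listed transcript, 626 (99.2%) are shared. Reads in shared bases may be left uncounted, so the level of Apoc2 and its place among the 9 are uncertain. Its neighbours Apoc1 and Apoc4 measured 4170 to 6002 and 144 to 217 CPM per kilobase, against 1.71 to 7.13 for Apoc2.

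Apoe, the ligand through which hepatic receptors take up remnant particles, lies at 19696109 to 19699188 on chromosome 7, in a stretch of 27610 bases (19671579 to 19699188) that also holds Apoc2. It measured 20716, 21210, 22188 and 23055 CPM in HFD WT and 27205, 22754, 26348 and 24950 CPM in HFD Inpp4b-/-. Replicates 1, 3 and 4 of HFD Inpp4b-/- exceeded all HFD WT libraries, and replicate 2 fell just under the highest. The means were 21792 ± 1041 and 25314 ± 1943 CPM (SD, n = 4 each), with a log2 fold change of 0.22 (SE 0.12, interval -0.05 to 0.48) and an edgeR adjusted p of 0.454. As a plain share of raw counts, Apoe took 1.99% to 2.32% of HFD WT libraries and 2.40% to 2.79% of HFD Inpp4b-/- libraries. On that share, which takes no TMM factor, Apoa2, Apoc3 and Apoe did not overlap between the groups, as held for 8% of all tested genes.

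**Figure D2:**
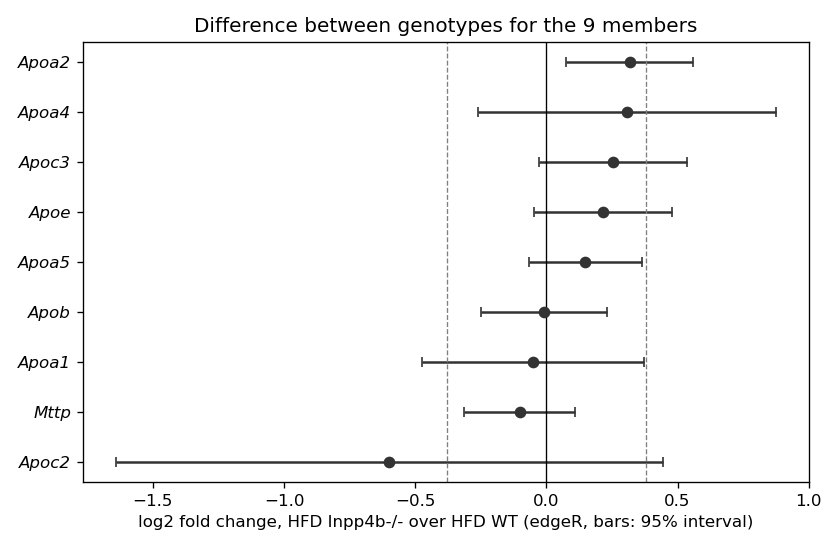
Log2 fold change of each gene, HFD Inpp4b-/- minus HFD WT (horizontal axis), as points with 95% intervals from edgeR over 4 mice per genotype. The Apoa2 interval (0.07 to 0.56) lies above 0, the other 8 intervals include 0, and the Apoc2 interval is the widest.

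The levels per length spanned from Apoa2 to Apoc2. As means over the 8 libraries, in CPM per kilobase of merged exon, they were 15366 for Apoa2, 11016 for Apoe, 7183 for Apoa1, 2357 for Apoc3, 388 for Apoa5, 297 for Apob, 173 for Apoa4, 46.8 for Mttp and 4.48 for Apoc2. Each gene was above the next in 8 of 8 libraries. Over all libraries the ranges of neighbours overlapped for Apoa2 and Apoe, for Apoa5 and Apob, and for Apob and Apoa4, and were apart for the other neighbours. The length used matters for the top of the order: per kilobase of longest transcript, Apoe (16728) was above Apoa2 (15930). It also matters for the level of Apoc2. Divided by its 167 exon bases shared with no other gene on the same strand, the mean of Apoc2 was 21.8, the lowest of the 9. Of the 631 bases of its first listed transcript, 626 are shared, so this division cannot settle its level or its place. Among all genes of the count table Apoa2 ranked 2, Apoe 4, Apoa1 9 and Apoc3 25 by CPM per kilobase.

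**Figure D3:**
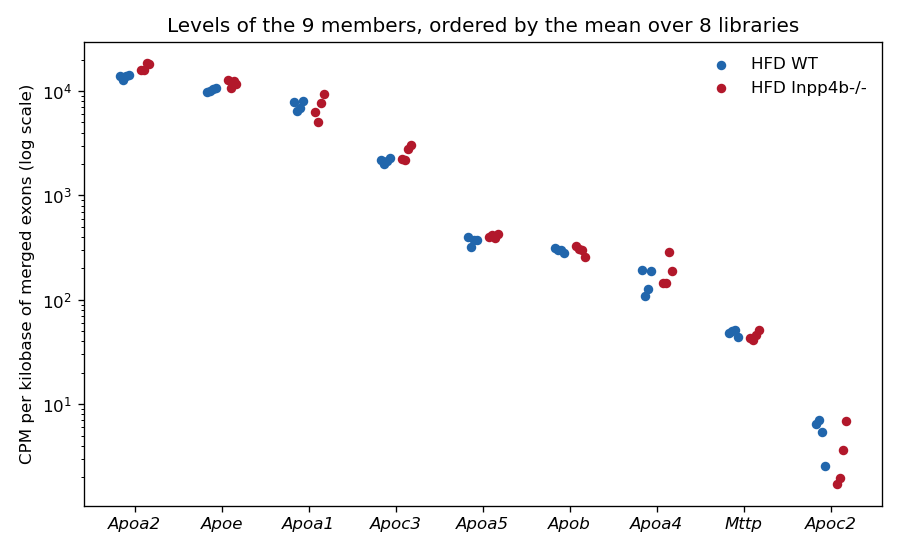
CPM per kilobase of merged exon of the 9 genes (log scale), ordered by mean, with 1 point per library coloured by genotype. The levels run from 15366 (Apoa2) down to 4.48 (Apoc2), the latter uncertain because most exon bases of Apoc2 are shared with another gene.

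Ratios within a library need no scaling between libraries, and 3 were compared by exact two-sided permutation over the 70 arrangements of 4 against 4 mice, for which the smallest possible p is 0.0286. The log2 count ratio of Apoc3, the inhibitor, to Apoc2, the cofactor, was 8.72, 8.45, 8.94 and 10.13 in HFD WT and 10.68, 10.44, 9.89 and 9.09 in HFD Inpp4b-/-. Only HFD WT replicate 4 stood inside the HFD Inpp4b-/- range. The difference of 0.97 had an exact permutation p of 0.114, and 0.214 adjusted over the 3 ratios.

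The log2 ratio of Apoa4 to Apoa1 was -5.04 ± 0.25 in HFD WT and -4.67 ± 0.39 in HFD Inpp4b-/- (SD, n = 4 each; difference 0.37, exact permutation p = 0.143, adjusted 0.214). For Mttp to Apob it was -3.79 ± 0.073 and -3.88 ± 0.27 (difference -0.09, exact permutation p = 0.571, adjusted 0.571). The Mttp to Apob ratio was tight among HFD WT mice, from -3.87 to -3.72, and wider in HFD Inpp4b-/-, from -4.09 to -3.50. None of the 3 ratios passed the test, and the first carries the uncertain level of Apoc2.

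**Figure D4:**
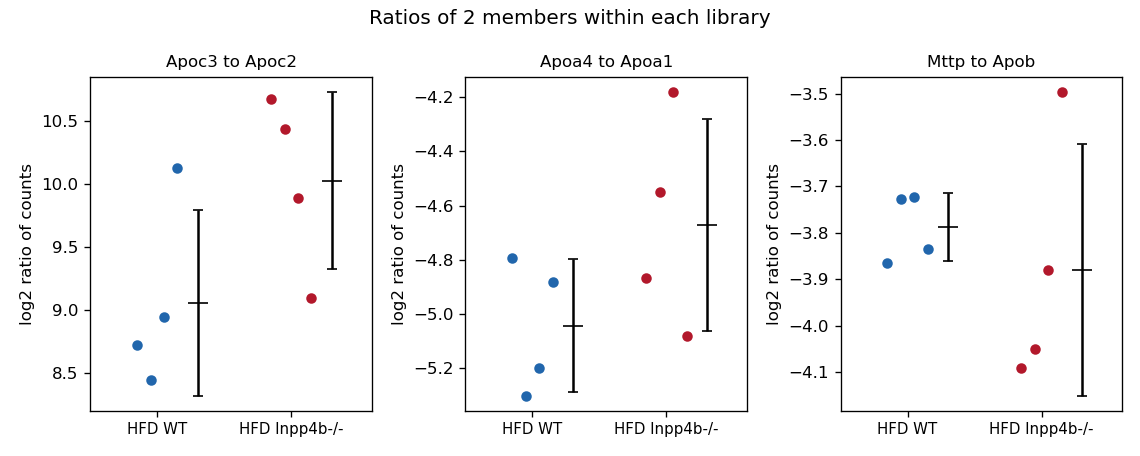
Log2 count ratios of Apoc3 to Apoc2, Apoa4 to Apoa1 and Mttp to Apob in each HFD WT (blue) and HFD Inpp4b-/- (red) library, with the mean and SD of each group in black; the vertical axes do not start at 0. The groups overlap in all 3 panels, and the differences of the means are 0.97, 0.37 and -0.09.

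Profiles over the 8 libraries, each gene's log2 CPM centred on its own mean, were closest for Apoa2 and Apoc3, with a root mean square difference of 0.084, followed by Apoa2 and Apoe at 0.108. Apoa2 and Apoc3 lie on different chromosomes. The most distant profiles were those of Apoa4 and Apoc2, at 0.89. This measure is not scaled by the spread of each gene, and every pair with Apoc2 was further apart than any pair without it. Apoc2 varied most, with an SD of 0.82 on the log2 scale. The tested genes outside the 9 with the profile most like it were Gm27252 (0.24), Treh (0.28), Dntt (0.29), Gjc3 (0.31) and Por (0.32), as root mean square differences over 8 libraries.

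Of 89 other lipoprotein genes listed for the pathway, 87 were tested. The sign of the log2 fold change was positive in 43 and negative in 44, with a median of -0.01. edgeR called 2 of them, Foxa2 as higher and Lsr as lower, beside the 1.17% called among all tested genes. An unadjusted p under 0.05 was reached by 15 of the 87 (17.2%, against 13.9% of all tested genes).

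Lsr (chromosome 7, 30957770 to 30973464) encodes the lipolysis-stimulated lipoprotein receptor, which clears triglyceride-rich particles. It measured 65.3, 67.4, 65.2 and 75.8 CPM in HFD WT and 43.8, 39.1, 43.8 and 41.0 CPM in HFD Inpp4b-/-, with a wide gap between the groups. The log2 fold change was -0.71 (SE 0.084, edgeR adjusted p 0.00818). Foxa2 (chromosome 2, 148042877 to 148046969) encodes a forkhead factor. It measured 28.6, 27.4, 25.0 and 42.3 CPM in HFD WT and 60.7, 86.2, 54.1 and 74.1 CPM in HFD Inpp4b-/-, without overlap. Its log2 fold change was 1.16 (SE 0.19, edgeR adjusted p 0.0351), and the call was lost without HFD Inpp4b-/- replicate 2 (0.109) or HFD WT replicate 1 (0.103).

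Among 8 other genes with apolipoprotein names 7 had a positive and 1 a negative log2 fold change, with 0 called and a median of 0.14. Over all tested genes 50.4% had a positive value. This list goes by gene name and includes Apoo (0.16) and Apool (0.086), whose place on lipoproteins is not shown here. Apom, which carries sphingosine 1-phosphate on HDL, was at -0.35 (edgeR adjusted p 0.219) and Apoc4 at 0.26 (0.368). The 18 genes of VLDL assembly and secretion had 5 positive and 13 negative values, 0 called and a median of -0.04. The largest were the chaperones Hspa5 (-0.83, edgeR adjusted p 0.213) and Pdia4 (-0.64, 0.266; -0.37 without HFD WT replicate 4). Hspa5 ranged over 667 to 1008 CPM in HFD Inpp4b-/- and 839 to 2281 CPM in HFD WT mice, and was called by DESeq2 (adjusted p 0.0474) and by edgeR without HFD WT replicate 2, its lowest HFD WT library (0.0628).

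The 17 genes of lipid supply had 11 positive and 6 negative values, 0 called and a median of 0.05, with the largest at Pltp (0.83, edgeR adjusted p 0.366) and Lpin1 (-0.48, 0.717). Without HFD Inpp4b-/- replicate 4 Pltp was at 0.35, and with single libraries left out Lpin1 ran from -0.76 to -0.03, the latter without HFD WT replicate 1. Among the 10 uptake genes 2 were positive and 8 negative, with a median of -0.13. Lsr was the one called, and Vldlr had the largest value (1.42, edgeR adjusted p 0.402) at 0.768 to 16.5 CPM. The 10 genes of lipase control split 5 to 5, with 0 called; Pla1a was at -0.44 (0.273) and Angptl8, an inhibitor of lipase, at -0.42 (0.722; -0.10 without HFD Inpp4b-/- replicate 1). For HDL and sterol export, 4 of 6 were positive, with 0 called and a median of 0.22. Abcg5 and Abcg8, the sterol transporter subunits, were at 0.44 and 0.33 (edgeR adjusted p 0.296 and 0.380). Abcg5 was called (0.0726) without HFD WT replicate 2, its highest HFD WT library. The 18 regulators split 9 to 9, with Foxa2 called and Nr0b2 at 0.79 (0.358; 0.34 without HFD Inpp4b-/- replicate 3).

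**Figure D5:**
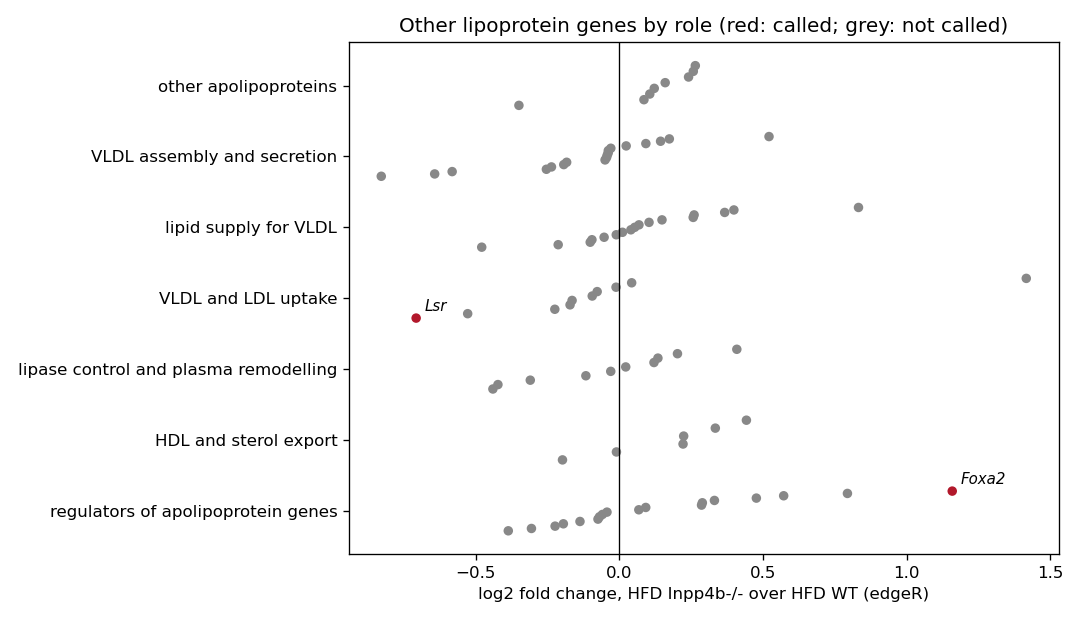
Log2 fold changes, HFD Inpp4b-/- minus HFD WT, of the 87 other lipoprotein genes in 7 lists, 1 point per gene (red and named where called, grey otherwise; the height within a list only keeps points apart). Foxa2 (1.16) and Lsr (-0.71) are the 2 called genes.

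Hepatocyte markers summed to 64422 to 69954 CPM per HFD WT library and 68631 to 85048 CPM per HFD Inpp4b-/- library, from 7 of 8 listed genes. Of these 7, 3 had a positive log2 fold change, and the median was -0.04. Macrophage markers, which also cover cells that make Apoe, reached totals of 73.7 to 205 CPM per HFD WT library and 139 to 244 CPM per HFD Inpp4b-/- library. Of these 10 genes 9 had a positive log2 fold change, with a median of 0.35 and 0 called, and their part in the Apoe values was not tested. Cholangiocyte markers, from 5 of 6 listed genes, totalled 23.7 to 31.6 CPM per HFD WT library and 29.7 to 40.6 CPM per HFD Inpp4b-/- library. Of these 5 genes 4 had a positive log2 fold change, with a median of 0.49 and 0 called. Their part in the Foxa2 values was not tested. Intestine also makes Apoa4 and Apob. Of 9 enterocyte markers, Sis, Lct, Alpi, Cdx1, Cdx2 and Muc2 had no row among the counts used here, and the other 3 totalled 60.5 to 93.7 CPM per HFD WT library and 80.8 to 108 CPM per HFD Inpp4b-/- library. Over all 12 marker lists 52 genes were tested and 1 was called, beside 1.17% of all tested genes. The called gene was the haemoglobin gene Hba-a2, at a log2 fold change of -2.92 (edgeR adjusted p 0.0570). Of the 5 erythroid genes, which include it, 3 had a positive log2 fold change, the median was 0.10, and the totals overlapped (114 to 431 CPM per HFD WT library, 208 to 346 CPM per HFD Inpp4b-/- library). The mitochondrial share was higher in every HFD Inpp4b-/- library, as was Apoa2, and its part in the Apoa2 values was not tested.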

How the data were processed

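Liver RNA-seq counts per gene from 8 libraries, 4 HFD Inpp4b-/- and 4 HFD WT, were analysed as the authors deposited them. Per the labels and the study's methods, reads were aligned with HISAT2 to GRCm38 and counted with HTSeq, and the authors used DESeq2. The study's methods also name a STAR alignment: DESeq2 was run on the counts of each aligner, and genes differing in both were kept. Only the HISAT2 counts were used here. The labels name ribosomal RNA depletion and the study's methods name the library kit alone. The annotation release and the strand setting of the counting are not given in the sources used here, so reads of genes overlapping on opposite strands may be mixed. A normalized table by the authors was not used.

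Groups were taken from the labels. Genes were filtered with filterByExpr, scaled by TMM and tested with edgeR 4.0.16 (glmQLFit, glmQLFTest; limma 3.58.1, R 4.3.3) with genotype as the only term, and p-values were adjusted over all 14866 genes tested. The threshold (adjusted p below 0.1, change above 1.3-fold) was set with the study's methods in view. Levels are CPM, per kilobase of merged GENCODE M21 exons where stated. Promoters came from RefSeq (GRCm38.p6). Figures were drawn with Python 3.11.15 and matplotlib 3.10.9. The fit was tested on simulated data for this comparison with 200 of 14542 genes changed: it recovered 75 of 103 changed 2-fold and 92 of 97 changed 4-fold, and 9.24% of its calls were false. No change smaller than 2-fold was simulated, so the recovery of smaller changes, such as those fitted for the 9 members, is not known.

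Named beside the 9 members were every called gene of a pathway list, the 2 genes with the largest log2 fold change in each list among those with a mean of at least 50 counts, and the 5 genes nearest in profile to the most variable member. The members and lists were chosen with earlier results of these data known. Alternatives were other scalings, other filters on low counts, DESeq2 1.42.0, other thresholds, leaving out each library, and the replicate number as a block.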

Additional observations from a re-analysis of the deposited data

How the results depend on the processing

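The count of called members was 0 under each of the 18 alternatives run. Over all genes, 174 were called, against 688 with DESeq2, 71 at an adjusted p under 0.05 and 53 to 345 with single libraries left out (lowest without HFD Inpp4b-/- replicate 2, highest without HFD WT replicate 2; every library but HFD WT replicate 4 moved it by over 1.5 times). Of the other lipoprotein genes 2 were called, and 1 to 4 with single libraries left out. Replicate numbers did not pair the libraries: the deviations of same-numbered libraries correlated at -0.17 to -0.0104 over 4 pairs. A block for replicate number left 26 of all genes and 1 of the other lipoprotein genes called, Foxa2, while Lsr had an adjusted p of 0.125. For the 3 ratios the block cannot move the difference of the means (0.97, 0.37 and -0.09), and the adjusted exact permutation p became 0.625 for each. Swaps within blocks allow fewer than the 70 arrangements, so the smallest possible p is above 0.0286. The rise in p therefore does not show that the differences weakened.

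Signs turned for 2 members with log2 fold changes near 0. Apoa1 ran from -0.21 to 0.083 and Apob from -0.055 to 0.054 with single libraries left out, and Apob was 0.017 with upper-quartile factors. The cause was not tested. The other 7 members kept their sign over 16 fits each, including Apoa2 at 0.27 to 0.36 and Apoc2 at -1.15 to -0.37. The ratio differences ranged over 0.75 to 1.32 for Apoc3 to Apoc2, 0.21 to 0.51 for Apoa4 to Apoa1 and -0.22 to -0.02 for Mttp to Apob with single libraries left out. TMM factors computed without the 9 members, chosen after seeing the data, left the counts of calls at 0, 174 and 2. Apoc2, with 50 to 201 counts per library, had the widest interval of the 9 members, and the cause of its spread was not tested.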

Other observations

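The profile of Apoa4, chosen after its values were seen for its high HFD Inpp4b-/- replicate 3, was most like those of Gm35558, Usp50, Gm8186, Bcl2l12 and Atp5k. Their root mean square differences from Apoa4 over 8 libraries were 0.13, 0.15, 0.16, 0.17 and 0.17 on the log2 scale, where Apoa4 itself had an SD of 0.43.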
